A study of Mus musculus with 4 samples.

Results

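The genes described here are 46 collagens and other genes of the extracellular matrix, and their transcripts were measured in 4 sorted cell populations of a study on midbrain dopaminergic (mDA) progenitors. The first pair of populations came from mouse ESCs with GFP knocked in at the Lmx1a locus of a 129SVEV line. These cells were differentiated as floating aggregates by the SFEBq method and sorted on day 9 for GFP, so that CORIN+LMX1A::GFP+ (here ESC CORIN+) and CORIN-LMX1A::GFP+ (here ESC CORIN-) cells were kept. The second pair was sorted from the ventral midbrain (VM, ventral mesencephalon) of C57BL/6N mouse fetuses at E11.5 into CORIN+ and CORIN- cells, with no selection for LMX1A. CORIN is a membrane-bound protease that marks the floor plate. The knock-in cells are a single engineered line, and GFP reports cells that express Lmx1a. Before differentiation the ESCs were kept on inactivated mouse embryo fibroblasts. SHH and FGF8b were given early in differentiation, and ascorbic acid and BDNF later.

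Members were taken by gene symbol from a list drawn up with earlier results of these data known, and the rule itself uses no measured value. The arrays carry probe sets called transcript clusters, and a cluster was used only when the array annotation paired it with 1 gene symbol. Of the 46 genes, 45 had such a cluster, out of 19938 genes in all, and Fbn1 was not analysed here. A single cluster represented each of 44 genes, while Hmcn1 had 77 clusters, of which the brightest stood for the gene and all were kept for a separate description. The members were read as 7 fibrillar collagens, 14 basement membrane genes, 9 other collagens, 5 proteoglycans, 8 measured glycoproteins, and the pair of the collagen receptor gene Ddr2 and the cross-linking enzyme gene Lox.

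Fibrillar collagens assemble into the cable-like fibres that connective tissue cells lay down. Basement membranes are thin sheets under epithelia and around vessels, built from laminins, type IV collagen and the nidogens that link them, and in the embryonic brain such a sheet lies between the neuroepithelium and the surrounding meninges. Small leucine-rich proteoglycans bind collagen fibres, and glycoproteins such as fibronectin, fibrillin and tenascin join cells to the matrix. In the developing brain, fibrillar collagens and small leucine-rich proteoglycans are known chiefly from the meninges and other mesenchyme, whereas neural progenitors also make laminins and versican.

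Signals were log2 values from 4.38 to 14.5, with medians from 7.97 to 8.03 across the 4 arrays. Each population had 1 array, so no difference has a replicate check, no error or p-value is given, and precision is limited by the number of arrays. A gene was counted when its signal was at least 2-fold higher or lower. Corin was higher on the CORIN+ side of both sorts, 3.90-fold after culture and 17.7-fold in fetal cells. Its log2 signals were 13.10 in ESC CORIN+, 11.13 in ESC CORIN-, 11.43 in fetal CORIN+ and 7.28 in fetal CORIN- cells. By Corin signal, the ESC CORIN- array was thus closer to the fetal CORIN+ than to the fetal CORIN- array. Of 9 neural progenitor markers, 5 had a higher and 4 a lower signal in fetal CORIN+ cells, with a median log2 fold of 0.015. Past 2-fold lay 1 of them in the fetal pair and none in culture, where the median was 0.048. The 3 with the largest fold within a pair are given here for ESC CORIN+, ESC CORIN-, fetal CORIN+ and fetal CORIN- cells. Pax6 had 6.52, 6.67, 9.79 and 11.01 (2.34-fold lower in fetal CORIN+ than in fetal CORIN- cells), Hes5 had 9.57, 8.74, 11.54 and 11.51, and Fabp7 had 12.30, 11.59, 13.70 and 13.79. The values of a gene in the 4 arrays are given in this order throughout.

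In the fetal VM the matrix genes were, with few exceptions, higher in CORIN+ cells. Of 45 members, 26 were at least 2-fold higher and none was at least 2-fold lower, while the other 19 lay under 2-fold. Over all genes, the shares past 2-fold in the same comparison were 3.16% for higher and 0.456% for lower signals. The members had a median log2 fold of 1.26, beside -0.040 over all genes, and 40 of the 45 had a higher signal in CORIN+ cells. In the ESC-derived cells the members leaned the other way, with none at least 2-fold higher in ESC CORIN+ cells, 6 at least 2-fold lower and 39 under 2-fold. There, 0.376% of all genes passed 2-fold upward and 0.522% downward. The median log2 fold of the members was -0.25, beside 0.0021 over all genes, and 36 of the 45 had a lower signal in ESC CORIN+ cells. Of all 19938 genes, 9846 had a lower signal in ESC CORIN+ cells. In sorted bulk populations, more cells of a type and more RNA per cell cannot be told apart.

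Fetal CORIN+ cells had the highest signal of the 4 arrays for 33 of the 45 members, against 15.6% of all genes. The lowest signal was that of fetal CORIN- cells for 21 members (25.6% of all genes) and that of ESC CORIN+ cells for 20 (27.4% of all genes).

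**Figure D1:**
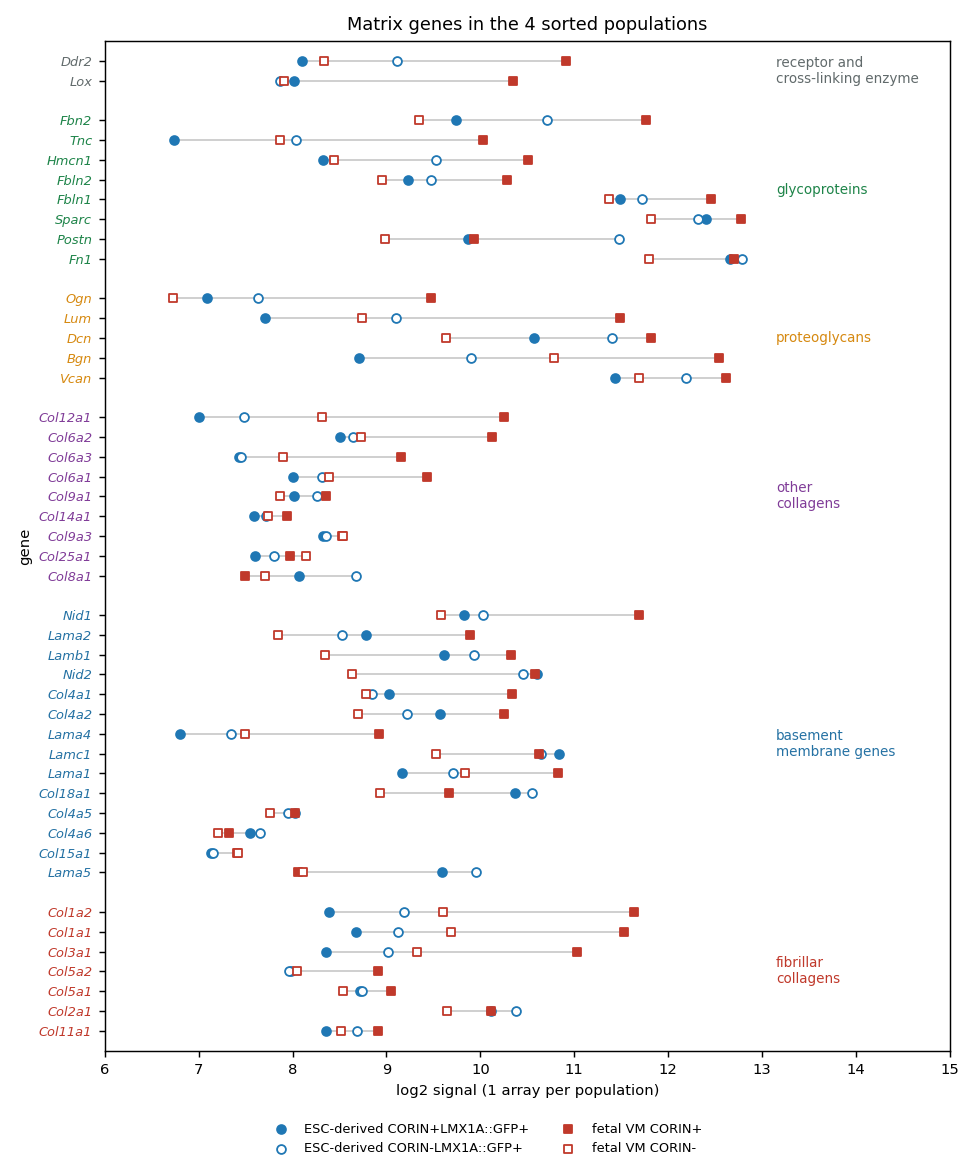
Log2 signal (horizontal axis) of the 45 measured matrix genes (rows, grouped by class) in the 4 sorted populations, with 1 array for each. Filled red squares, fetal CORIN+ cells, lie farthest to the right for 33 genes, and grey lines join the lowest and highest signal of a gene.

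Among the fibrillar collagens, the 3 chains of types I and III stood apart from the others. Col1a1 encodes the main chain of type I collagen, the most abundant protein of connective tissue, and its log2 signals were 8.68, 9.13, 11.53 and 9.68. Col1a2, its partner chain, had 8.39, 9.19, 11.64 and 9.61, and Col3a1, whose fibres are typical of loose embryonic tissue, had 8.36, 9.02, 11.03 and 9.33. In all 3 genes the fetal CORIN+ array was the brightest, the fetal CORIN- array came next and the ESC CORIN+ array was the dimmest. They were 3.59-fold, 4.08-fold and 3.24-fold higher in fetal CORIN+ cells, and 1.36-fold, 1.74-fold and 1.58-fold lower in ESC CORIN+ cells.

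The other 4 fibrillar genes all lay under 2-fold in both comparisons. Col2a1, the collagen of cartilage and notochord, had log2 signals of 10.11, 10.38, 10.11 and 9.64, so it was as bright in ESC-derived as in fetal CORIN+ cells. Col5a1, Col5a2 and Col11a1, whose chains sit inside or start larger fibres, had fetal log2 folds of 0.51, 0.86 and 0.39. The class as a whole had a median log2 fold of 0.86 in the fetal VM and -0.33 in the ESC-derived cells.

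Of the 14 basement membrane genes, 8 were at least 2-fold higher in the fetal CORIN+ cells, with a class median of 1.26, while no member of the class reached 2-fold in the ESC-derived cells, where its median was -0.070. Col4a1 and Col4a2 encode the chains of the common type IV collagen. Col4a1 had log2 signals of 9.03, 8.84, 10.34 and 8.78, and Col4a2 had 9.57, 9.22, 10.25 and 8.69. The 2 genes had the same fold in the fetal VM, 2.95-fold higher, and both leaned to ESC CORIN+ cells in culture, at 1.14-fold and 1.28-fold. They lie head to head on opposite strands of chromosome 8 in the RefSeq GRCm38.p6 annotation. Their start positions differ by 21 bases, and the annotated 5' ends overlap. Col4a5 and Col4a6, the other head-to-head pair described here, start 1343 bases apart on chromosome X and do not overlap. Their folds were small, with log2 values of 0.26 and 0.11 in the fetal VM and 0.077 and -0.11 in culture.

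Laminins are trimers of 1 alpha, 1 beta and 1 gamma chain, and the alpha chain genes were unlike each other. Lama2, the alpha chain of muscle and of the brain's vessels and meninges, had log2 signals of 8.79, 8.52, 9.89 and 7.85 and was 4.11-fold higher in fetal CORIN+ cells. Lama4, an alpha chain of vessel walls, had 6.80, 7.35, 8.92 and 7.49 and was 2.69-fold higher. Lama1, the alpha chain of early embryonic basement membranes, had 9.17, 9.71, 10.83 and 9.84. At 1.98-fold it lay just under the threshold, which it passed when folds were centred on the median of all clusters. Lama5, an alpha chain of epithelia, ran apart from the others, with 9.60, 9.95, 8.05 and 8.11. It did not separate the fetal populations, at 1.04-fold lower, and was brighter in both ESC-derived arrays than in either fetal array.

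The shared beta and gamma chains and the nidogens were all at least 2-fold higher in the fetal CORIN+ cells. Lamb1 had log2 signals of 9.62, 9.93, 10.33 and 8.35 (3.94-fold), and Lamc1 had 10.84, 10.65, 10.63 and 9.53 (2.14-fold). Nid1, which bridges laminin and type IV collagen, had 9.83, 10.03, 11.69 and 9.58 (4.31-fold), and its relative Nid2 had 10.61, 10.46, 10.58 and 8.64 (3.85-fold). For Lamc1 and Nid2, both ESC-derived arrays were close to the fetal CORIN+ array, and the fetal CORIN- array alone was low. Col18a1, the collagen that carries endostatin, was 1.67-fold higher, with 10.36, 10.55, 9.67 and 8.93, and Col15a1 had a log2 fold of -0.014.

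Of the 9 other collagens, 4 were at least 2-fold higher in the fetal CORIN+ cells and all 9 had a lower signal in ESC CORIN+ cells, none by 2-fold. Type VI collagen forms beaded filaments around cells from 3 chains, and all 3 genes passed the threshold. Col6a1 had log2 signals of 8.00, 8.31, 9.43 and 8.39 (2.06-fold), Col6a2 had 8.50, 8.64, 10.12 and 8.73 (2.63-fold), and Col6a3 had 7.43, 7.45, 9.16 and 7.90 (2.39-fold). Their folds in culture were 1.24-fold, 1.10-fold and 1.02-fold lower. The last, of Col6a3, changed sign after quantile normalization (log2 fold -0.022, then 0.010). Col12a1, which decorates the surface of collagen I fibres, had 7.00, 7.48, 10.25 and 8.31 and was 3.85-fold higher in the fetal VM. The cartilage collagens Col9a1 and Col9a3 and the fibril-associated Col14a1 had fetal log2 folds of 0.49, -0.019 and 0.21. Col8a1, a short-chain network collagen, and Col25a1, a transmembrane collagen of neurons, had -0.21 and -0.16, and Col8a1 was brightest in ESC CORIN- cells, with a log2 signal of 8.67.

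Of the 5 larger classes, the 5 proteoglycans had the medians farthest from 0 in both comparisons, at 2.18 in the fetal VM and -0.83 in the ESC-derived cells, and all 5 were higher in fetal CORIN+ cells and lower in ESC CORIN+ cells. Lumican (Lum), which spaces collagen fibres, had log2 signals of 7.70, 9.10, 11.49 and 8.74. It was 2.64-fold lower in ESC CORIN+ cells and, in the fetal pair, 6.71-fold higher in CORIN+ cells. Biglycan (Bgn) had 8.70, 9.90, 12.55 and 10.79 and was 2.30-fold lower and 3.39-fold higher. Decorin (Dcn), the prototype of the family, had 10.57, 11.40, 11.82 and 9.64 and was 1.78-fold lower and 4.54-fold higher. Ogn, which encodes osteoglycin, had 7.09, 7.63, 9.47 and 6.72 and was 1.46-fold lower and 6.73-fold higher. Versican (Vcan), the large hyaluronan-binding proteoglycan that neural tissue also makes, had 11.43, 12.19, 12.62 and 11.69, and was 1.69-fold lower and 1.91-fold higher.

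All 8 measured glycoproteins had a higher signal in fetal CORIN+ cells, 5 of them by at least 2-fold, and 7 had a lower signal in ESC CORIN+ cells, 3 of them by at least 2-fold. Tenascin C (Tnc), which is made by glia and by mesenchyme, had log2 signals of 6.73, 8.04, 10.03 and 7.87. It was 2.47-fold lower in the ESC-derived pair and 4.47-fold higher in the fetal pair. Fibrillin 2 (Fbn2), a microfibril protein of embryonic tissue, had 9.74, 10.71, 11.76 and 9.35, and was 5.34-fold higher in the fetus and 1.96-fold lower in culture. Fbln1 and Fbln2 encode fibulins, which bind elastic fibres and basement membranes. Fbln1 had 11.49, 11.73, 12.45 and 11.37 (2.12-fold higher in fetal CORIN+ cells) and Fbln2 had 9.23, 9.47, 10.28 and 8.96 (2.51-fold). Fibronectin (Fn1) and Sparc, a collagen-binding protein, had high signals in all 4 arrays. Fn1 had 12.66, 12.79, 12.70 and 11.79, and Sparc had 12.41, 12.32, 12.78 and 11.82, which is 1.88-fold and 1.94-fold higher in fetal CORIN+ cells.

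Periostin (Postn), a protein of collagen-rich mesenchyme, had the largest difference of any member in culture. Its log2 signals were 9.86, 11.47, 9.93 and 8.99. The ESC CORIN- array was thus the brightest of the 4, and the ESC CORIN+ array was 3.05-fold lower. In the fetal VM Postn was 1.92-fold higher in CORIN+ cells. Ddr2, a receptor tyrosine kinase that fibrillar collagen activates, had 8.10, 9.11, 10.91 and 8.34. It was 5.93-fold higher in fetal CORIN+ cells and 2.02-fold lower in ESC CORIN+ cells, the latter just past the threshold and lost after quantile normalization or the addition of 32 to each linear signal. Lox, the lysyl oxidase that cross-links collagen, had 8.01, 7.86, 10.35 and 7.91. Its fetal CORIN+ array stood 5.43-fold above the CORIN- array, while the other 3 arrays were alike.

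Hmcn1 encodes hemicentin 1, a very long immunoglobulin-repeat protein of the matrix, and its 77 clusters cover different stretches of the same gene. They show how far the fold varied between probe sets, but come from the same 4 RNA samples and are not replicates. All 77 clusters had a higher signal in fetal CORIN+ than in fetal CORIN- cells, and all 77 had a lower signal in ESC CORIN+ than in ESC CORIN- cells. Fetal CORIN+ cells had the highest signal of the 4 arrays in 76 clusters. The size of the fold varied widely between clusters, from log2 values of 0.12 to 2.22 in the fetal VM, with a median of 1.24 and 57 clusters at least 2-fold higher. In culture it ran from -1.20 to -0.082, with a median of -0.48 and 2 clusters at least 2-fold lower. Of all 28856 clusters on the array, 770 were at least 2-fold higher in the fetal pair and 135 at least 2-fold lower in culture. The brightest Hmcn1 cluster had log2 signals of 8.33, 9.53, 10.51 and 8.44. With 4.19-fold higher in the fetus and 2.30-fold lower in culture it lay toward the large end of both ranges. By the mean over all clusters, Hmcn1 was not past 2-fold in the ESC-derived cells (log2 fold -0.49).

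**Figure D2:**
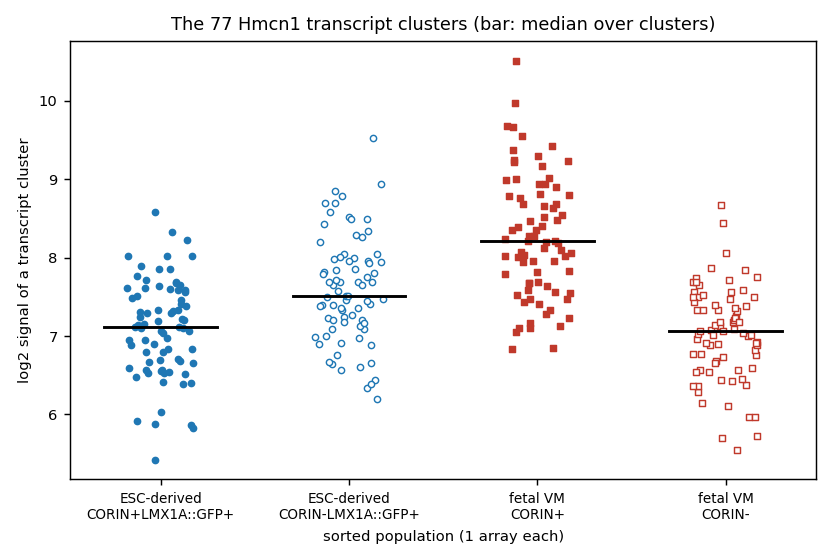
Log2 signal (vertical axis) of the 77 transcript clusters of Hmcn1 in each of the 4 sorted populations (1 array each, horizontal position within a population is arbitrary). Black bars are medians over clusters, which are 7.12, 7.52, 8.21 and 7.06 from left to right.

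Both comparisons together put most members in the same corner. Of 45 members, 31 had a lower signal in ESC CORIN+ cells and a higher signal in fetal CORIN+ cells, against 18.1% of all genes. This count goes by sign alone and includes log2 folds near 0 in culture, such as Col5a1 (-0.018) and Col6a3 (-0.022). At 2-fold in both, the members were Lum, Bgn, Tnc, Hmcn1 (by its brightest cluster) and Ddr2 (lost in culture under 2 alternatives), which are 5 of the 18 such genes on the array (0.0903% of all genes). The fold in the fetal VM exceeded that in culture by 4.15 log2 units for Lum, 3.58 for Ddr2, 3.47 for Tnc, 3.27 for Hmcn1 and 2.96 for Bgn. The difference between the comparisons was not tested, because each rests on 2 arrays. Of the 5 larger classes, basement membrane genes had the smallest share in this corner, with 6 of 14. Members with a higher signal on the CORIN+ side of both pairs were Col4a1, Col4a2, Col4a5, Col5a2, Lama2, Lamc1, Nid2, Sparc and Lox, none of them by 2-fold in culture. Of these, Col5a2 (0.029), Col4a5 (0.077) and Sparc (0.091) had the smallest log2 folds in culture.

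**Figure D3:**
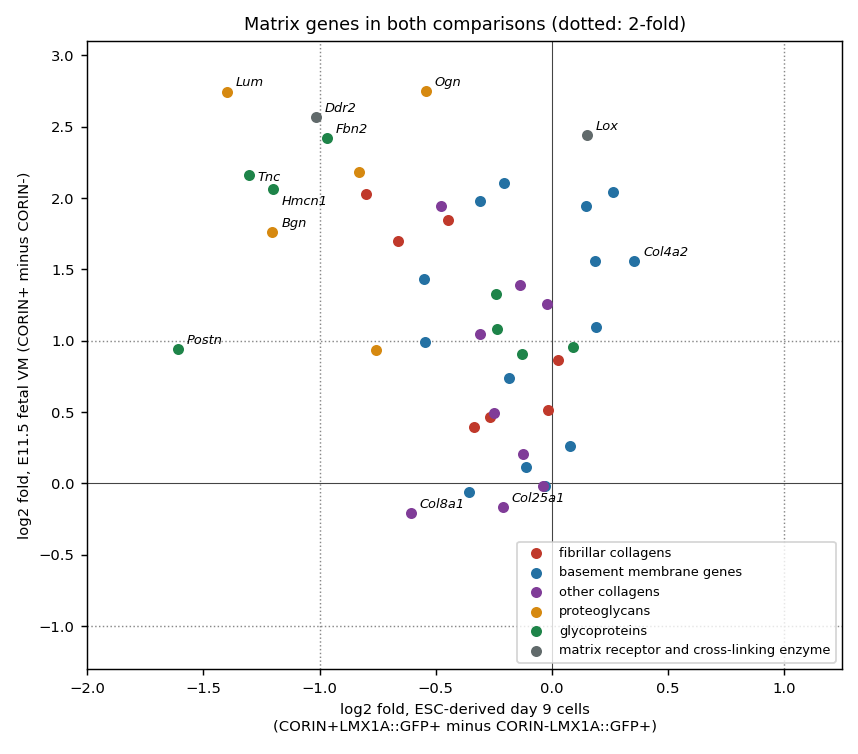
Log2 fold of the 45 matrix genes in the ESC-derived cells (horizontal axis, CORIN+LMX1A::GFP+ minus CORIN-LMX1A::GFP+) and in the fetal VM (vertical axis, CORIN+ minus CORIN-), with 1 array per population, points coloured by class and dotted lines at 2-fold. Lum, Ddr2, Tnc, Hmcn1 and Bgn lie past 2-fold in opposite directions, and no gene lies past 2-fold to the right or below.

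Promoter sequences were read for members that were lower in culture and higher in the fetus, to set the DNA before their starts side by side. A RefSeq GRCm38.p6 promoter was held for 30 of the 45 measured members. The 250 bases before the annotated start (the most upstream one where a gene has several) are shown for Col1a2 and Col3a1, which encode chains of the main fibrillar collagens, and for the 4 of the 5 genes past 2-fold in opposite directions that had an entry. They run 5' to 3' on the strand of the gene. Capitals mark 3 promoter motifs searched on both strands, namely the TATA box (TATAAA), the CCAAT box (CCAAT) and the GC box (GGGCGG). Matches may overlap.
Col1a2, chr6:4505368-4505617, plus strand: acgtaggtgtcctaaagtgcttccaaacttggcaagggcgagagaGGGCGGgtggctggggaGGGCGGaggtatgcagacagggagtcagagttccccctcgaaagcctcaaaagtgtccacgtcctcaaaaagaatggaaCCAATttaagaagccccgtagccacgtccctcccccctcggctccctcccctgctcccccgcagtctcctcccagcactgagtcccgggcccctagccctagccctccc
Col3a1, chr1:45311288-45311537, plus strand: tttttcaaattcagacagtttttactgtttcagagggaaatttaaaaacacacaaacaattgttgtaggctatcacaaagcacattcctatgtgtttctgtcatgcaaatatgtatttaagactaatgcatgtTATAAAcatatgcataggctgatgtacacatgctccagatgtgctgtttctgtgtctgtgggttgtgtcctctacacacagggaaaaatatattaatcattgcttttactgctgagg
Bgn, chrX:73483351-73483600, plus strand: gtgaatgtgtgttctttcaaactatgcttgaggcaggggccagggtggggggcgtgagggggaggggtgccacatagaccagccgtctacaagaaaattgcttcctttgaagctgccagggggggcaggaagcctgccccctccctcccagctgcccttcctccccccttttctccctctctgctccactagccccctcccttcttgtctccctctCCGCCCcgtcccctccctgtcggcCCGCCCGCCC
Tnc, chr4:64047016-64047265, minus strand: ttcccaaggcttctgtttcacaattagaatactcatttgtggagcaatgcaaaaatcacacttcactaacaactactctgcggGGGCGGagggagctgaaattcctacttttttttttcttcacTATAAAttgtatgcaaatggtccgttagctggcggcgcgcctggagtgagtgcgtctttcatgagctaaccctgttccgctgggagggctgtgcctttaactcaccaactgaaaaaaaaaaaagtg
Ddr2, chr1:170088945-170089194, minus strand: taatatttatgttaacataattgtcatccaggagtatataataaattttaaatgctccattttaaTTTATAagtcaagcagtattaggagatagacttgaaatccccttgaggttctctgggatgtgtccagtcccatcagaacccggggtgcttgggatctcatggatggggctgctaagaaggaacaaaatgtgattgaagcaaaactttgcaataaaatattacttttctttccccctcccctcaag
Hmcn1, chr1:150993436-150993685, minus strand: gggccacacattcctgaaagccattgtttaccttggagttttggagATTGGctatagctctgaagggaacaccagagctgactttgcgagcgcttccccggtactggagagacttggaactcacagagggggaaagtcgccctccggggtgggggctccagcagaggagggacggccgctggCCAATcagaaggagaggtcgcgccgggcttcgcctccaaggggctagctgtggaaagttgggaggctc

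No motif was held by all 6 sequences. The promoter of Col1a2 held 1 CCAAT box and 2 GC boxes, that of Bgn 3 GC boxes close to the start, that of Tnc 1 TATA and 1 GC box, that of Hmcn1 2 CCAAT boxes, and those of Col3a1 and Ddr2 1 TATA box each. Among the 30 members, the TATA box was found in 4 promoters (13.3%), beside 13% of 27025 promoters, and the CCAAT box in 11 (36.7%), beside 34.5%. The GC box was found in 17 member promoters (56.7%), beside 33% of all. The TATAAA matches of Col3a1, Tnc and Ddr2 began 117, 126 and 185 bases before the annotated start, that of Ddr2 on the opposite strand. A match describes the letters in this window and is not evidence that a factor binds there.

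Other genes of matrix assembly were read from 6 lists. Of 15 measured genes that fold, process or cross-link collagen, 4 were at least 2-fold higher in the fetal CORIN+ cells and none was at least 2-fold lower. They were Pcolce (4.27-fold), which helps to cleave the collagen propeptide, Crtap (3.58-fold), a partner of prolyl 3-hydroxylase, the prolyl hydroxylase gene P4ha3 (2.45-fold) and the collagen chaperone gene Serpinh1 (2.16-fold). In culture this list lay under 2-fold throughout, with a median log2 fold of 0.16. Of 20 matrix receptors, 5 were at least 2-fold higher in the fetal CORIN+ cells and none was at least 2-fold lower. Among the 5 were the collagen-binding integrin chain Itga11 (4.14-fold) and the integrin chains Itgb5 (3.32-fold), Itga9 (2.84-fold) and Itga8 (2.57-fold). All 13 proteases and inhibitors had a higher signal in fetal CORIN+ cells, 4 of them by at least 2-fold. Those 4 were Adamts5 (3.87-fold), the gelatinase gene Mmp2 (3.52-fold), Timp1 (2.88-fold) and Timp3 (2.55-fold).

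In the fetal VM, 8 of 18 further connective tissue matrix genes were at least 2-fold higher in CORIN+ cells. Among them were Efemp1 (4.62-fold), Tgfbi (4.28-fold), Sparcl1 (4.08-fold) and Thbs2 (3.98-fold). So were 3 of 13 further basement membrane genes, Egfl6 (3.53-fold), Lamc3 (2.48-fold) and Frem1 (2.27-fold). None of either list was at least 2-fold lower. The matrix genes of neural tissue lay on both sides. Of 14, 2 were at least 2-fold higher in the fetal CORIN+ cells, the hyaluronan link protein gene Hapln1 (6.30-fold) and vitronectin (Vtn, 3.64-fold), and 2 were at least 2-fold lower, Spock1 (2.29-fold) and the reelin gene Reln (2.25-fold). The median log2 fold of that list was -0.36. In culture 1 of the 14 passed 2-fold, with Spock2 2.56-fold higher in ESC CORIN+ cells.

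**Figure D4:**
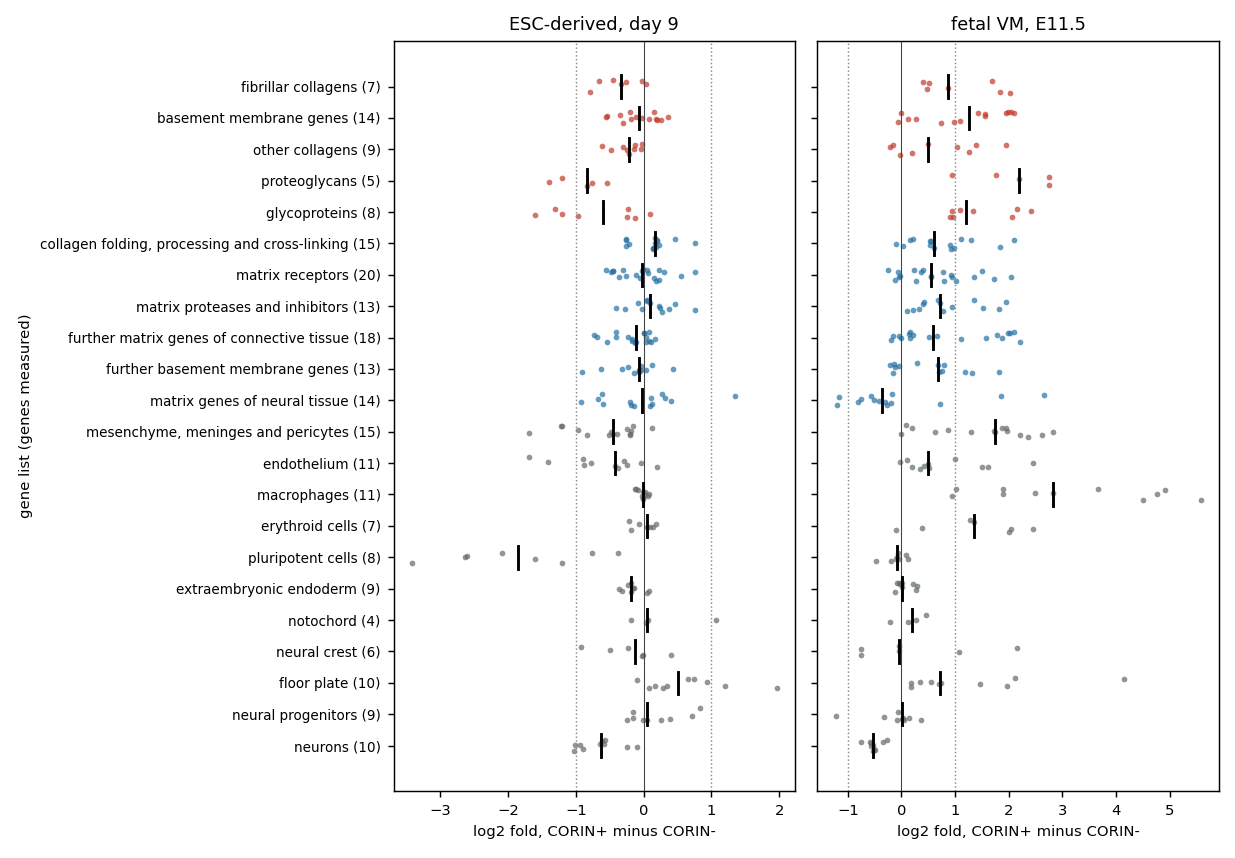
Log2 fold (horizontal axes, CORIN+ minus CORIN-) of each measured gene in the matrix classes (red), other matrix lists (blue) and cell type marker lists (grey), in the ESC-derived cells (left) and the fetal VM (right), with 1 array per population. Black bars are list medians and dotted lines mark 2-fold. The mesenchyme list lies at -0.45 on the left and 1.75 on the right, and the proteoglycans at -0.83 and 2.18. The endothelium list lies at -0.43 and 0.49, the floor plate list at 0.50 and 0.72, and the neuron list at -0.63 and -0.52.

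Markers of other cell types were read in the same comparisons, and the lists differed from each other in direction and size. The mesenchyme list held 15 markers, some of them of meninges or pericytes. In the fetal pair, 10 of the 15 passed 2-fold toward CORIN+ cells, led by Osr1 (7.11-fold), Tbx18 (6.17-fold) and Pdgfra (5.13-fold). The pericyte markers Cspg4, Kcnj8 and Abcc9 were only 1.15-fold, 1.06-fold and 1.54-fold higher there, and Rgs5 was 1.01-fold lower. Pdgfrb was 3.37-fold higher. In the ESC-derived pair, 3 markers of the list (Foxc2, Foxc1 and Tbx18) were at least 2-fold lower in ESC CORIN+ cells. The summed linear signal of this list was 4880, 7170, 17624 and 4912 in the 4 arrays. Foxc2, a transcription factor of mesenchyme picked after its values were seen, had log2 signals of 7.78, 9.47, 10.65 and 8.44. Twist1 of the same list ran otherwise, with 9.81, 9.69, 9.35 and 7.62. Of 11 endothelial markers, 3 were at least 2-fold higher in the fetal CORIN+ cells (Cdh5, Emcn and Eng) and 2 (Cdh5 and Emcn) at least 2-fold lower in ESC CORIN+ cells, with summed signals of 1684, 2454, 4796 and 2024.

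Blood cell markers separated the fetal arrays but not the ESC-derived ones. Of 11 macrophage markers, 10 were at least 2-fold higher in the fetal CORIN+ cells, led by Ly86 (47.9-fold), C1qb (30.1-fold) and Mrc1 (27.0-fold). Their summed signals were 1068, 1077, 14643 and 1134, and in the ESC-derived arrays their log2 signals lay between 6.03 and 7.74. The 7 erythroid genes had summed signals of 942, 918, 27425 and 8692, with 5 at least 2-fold higher in the fetal CORIN+ cells, led by Hbb-bh1 (5.50-fold), Slc4a1 (4.11-fold) and Hba-x (4.02-fold). In the ESC-derived pair, 6 of 8 pluripotency markers were at least 2-fold lower in ESC CORIN+ cells, led by Dppa5a (10.7-fold), Utf1 (6.20-fold) and Nanog (6.06-fold), with summed signals of 925, 4435, 919 and 1019. The 9 markers of extraembryonic endoderm, which makes laminin and type IV collagen, were within 2-fold in both comparisons, with summed signals of 1387, 1524, 1422 and 1346. Neuronal markers had summed signals of 13484, 19973, 37404 and 52589 and were lower in both CORIN+ arrays. The part of any of these cell types in the folds of the matrix genes was not tested.

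Between sources, the 2 CORIN+ arrays differed more in the matrix genes than the 2 CORIN- arrays did. In ESC CORIN+ cells, 23 of 45 members were at least 2-fold lower than in fetal CORIN+ cells (4.37% of all genes) and 1 was at least 2-fold higher (2.98%). The lower members were led by Bgn (14.4-fold), Lum (13.8-fold), Tnc (9.85-fold), Col12a1 (9.52-fold) and Col1a2 (9.49-fold), and the higher one was Lama5 (2.91-fold). In ESC CORIN- cells, none was at least 2-fold lower than in fetal CORIN- cells (3.52% of all genes) and 9 were at least 2-fold higher (4.54%). Of those 9, Col18a1, Lama5, Lamb1, Lamc1 and Nid2 belong to the basement membrane, and the others were Dcn, Postn, Fbn2 and Hmcn1. Postn was 5.61-fold, Lama5 3.58-fold and Nid2 3.53-fold higher. The members' median log2 difference was -1.05 between the CORIN+ arrays and 0.36 between the CORIN- arrays. These differences share their arrays with the comparisons above. Source, strain, culture with its added factors, LMX1A selection and any batch of arrays cannot be told apart.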

How the data were processed

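RNA from 4 sorted mouse cell populations, 1 array each, was labelled by the authors with an Ambion whole-transcript kit, hybridized to Affymetrix arrays and analysed with GeneSpring. Log2 signals of 28856 transcript clusters were deposited. How probes were summarized, background was corrected and arrays were normalized, and on which build, is not given in the sources used here. The values were used as deposited.

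The array annotation paired 21789 clusters with 1 gene symbol, 1621 with several, and 5446 are unnamed here. For 21698 clusters the symbol was brought up to date by gene identifier with RefSeq GRCm38.p6 names, which gave 19938 genes, each represented by its brightest cluster over the 4 arrays. Log2 folds were CORIN+ minus CORIN-, or ESC-derived minus fetal. No test was possible with 1 array per population. Members, classes and lists were chosen with earlier results of these data known. Classes were described by counts at 2-fold and medians. Values in 4 arrays were given for each member at least 2-fold higher or lower in either pair, and for some others chosen after their values were seen. Genes at least 2-fold higher or lower were named from the other matrix lists, at most 4 per direction and pair. From cell type lists, at most 3 with the largest fold in a pair were named. Foxc2, Twist1, Pdgfrb, Cspg4, Kcnj8, Abcc9 and Rgs5 were described after their values were seen. Markers of notochord and neural crest (summed signals of 3200, 2581, 1517 and 1273, and of 1064, 1153, 3236 and 3426), floor plate (68568, 46274, 31783 and 16618) and neural progenitors (34840, 30439, 47254 and 48391) were also read. Counting was tested on simulated arrays. Python 3.11.15, numpy 2.4.6, pandas 2.3.3 and matplotlib 3.10.9 were used.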

Additional observations from a re-analysis of the deposited data

Results flagged for a closer look

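Lum, Ddr2, Tnc, Hmcn1 and Bgn differed in opposite directions in the 2 comparisons, each by at least 2-fold. Their signal was lower in CORIN+LMX1A::GFP+ (ESC CORIN+) cells than in CORIN-LMX1A::GFP+ cells, and higher in CORIN+ than in CORIN- cells of the fetal VM. The fetal log2 fold exceeded the ESC-derived one by 4.15, 3.58, 3.47, 3.27 and 2.96. The difference between the comparisons was not tested. The values of Hmcn1 are those of the brightest of its 77 clusters. By the mean over clusters its log2 folds were -0.49 in culture and 1.24 in the fetus, so that it no longer passed 2-fold in culture. Ddr2 fell just short of 2-fold in culture after quantile normalization (-0.99) or with 32 added to each linear signal (-0.94). Mesenchyme markers had median log2 folds of -0.45 and 1.75 in the same 2 comparisons, and macrophage markers -0.0093 and 2.82.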

How the results depend on the processing

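No paired analysis was possible because each population has 1 array. Quantile normalization, centring, 32 added to each linear signal, the brightest cluster of the pair, the mean over clusters and a filter at the 50th percentile of signal left every count of members at 2-fold within 1.5 times its value. Of the 6 members lower in culture, 5 were shared after quantile normalization (Fbn2 in place of Ddr2), after 32 was added (without Ddr2) and by the mean over clusters (without Hmcn1). Of the 26 higher in the fetus, all were shared under each alternative but the addition of 32, which lost Col6a1.

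The threshold changed the counts more. At 1.5-fold, 12 members were lower in the ESC-derived pair (2.32% of all genes), 2 were higher between the CORIN+ arrays (ESC-derived minus fetal, 7.88%), and 15 were higher (10.4%) and 2 lower (7.18%) between the CORIN- arrays. The counts of 2 are below the share over all genes. At 3-fold these were 1 (0.135%), 0 (0.978%), 5 (1.57%) and 0 (1.46%), and 17 were higher in the fetal pair (1.34%). The filter on signal moved fetal medians to 1.56 for basement membrane genes and 1.04 for other collagens, and the ESC-derived median to -1.02 for proteoglycans. The small ESC-derived median of basement membrane genes changed sign with it, from -0.070 to 0.077. The filter drops dim genes unless 1 array is brighter and so favours genes that differ. The mean over clusters moved the ESC-derived glycoprotein median from -0.61 to -0.37. With 32 added, the folds of Ogn in the fetus (2.43) and of Tnc in culture (-1.09) were smaller, as for other genes dim in 1 array of a pair. No called direction was reversed. Detection calls were not used here, so a fold against a dim array may be held down by its background.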
